A study of Mus musculus with 32 samples.

Results

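Scgb3a1, Lrg1, Tmem252 and Spint1 were followed across cortex libraries of 2 genotypes and 4 RNA inputs. They are 4 of the 33000 genes in the count table, each found by its symbol on a single row, and they were chosen by a rule that took genes outside the immune system that rose strongly in GFAP-IL6 at 50 ng. Frontal cortex RNA came from 3-month-old mice of 2 kinds, WT C57BL/6 mice and mice homozygous for GFAP-IL6, a transgene that expresses interleukin 6 under the promoter of the astrocyte gene Gfap. Reverse transcription was run with 50, 10, 1 or 0.5 ng of total RNA in 3'Pool-seq, in which an indexed oligo-dT primer allows pooling before amplification and reads fall near the 3' ends of transcripts. Each of the 8 groups held 4 libraries, 32 in all. The promoter directs the transgene to astrocytes. The labels do not say whether libraries of a genotype that share a number were made from the same RNA, and the lower inputs may repeat the same animals. Tests at different inputs may therefore not be independent. Each p-value sets a difference only against the spread between the libraries in its test.

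Interleukin 6 binds its receptor together with gp130 (Il6st) and signals through Janus kinases to STAT3, which drives acute-phase genes in liver and Gfap in reactive astrocytes. Scgb3a1 encodes a small secreted protein of the secretoglobin family, best known from airway epithelium. Lrg1 encodes leucine-rich alpha-2-glycoprotein, a secreted acute-phase protein of liver, neutrophils and endothelium that modulates TGF-beta signalling. Spint1 encodes HAI-1, a Kunitz-type membrane inhibitor of serine proteases of epithelia, and Tmem252 encodes a predicted membrane protein.

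The library totals ran from 261378 to 9840302 counts, and 3 counts, the floor used here, stood for 0.305 to 11.5 CPM depending on the library. CPM, the unit of every level below, is the count divided by the library total and scaled by the same constant for all libraries, with no correction for transcript length, so levels were compared between libraries and not between genes. In every group the total was lowest in replicate 2 and highest in replicate 4. Ttr, a choroid plexus gene, was at 3003 to 3355 CPM in the 4 libraries of WT replicate 3 and at 25.5 to 335 CPM in the other 28, so WT replicate 3 stood apart at every input. GFAP-IL6 replicate 2 was the highest of its group for Ttr at all 4 inputs, and between 50 and 10 ng the deviations of libraries that share a number had r from 0.052 to 0.510 in GFAP-IL6 and from 0.077 to 0.237 in WT over genes. Whether they share RNA was not tested, and the 10 ng libraries cannot be taken as animals independent of those at 50 ng. Il6 went against the labels at 1 ng in replicate 3, with 13 counts in the WT library and 0 in the GFAP-IL6 library, and the values of the 4 genes at 1 ng are given with and without this pair, a choice made after seeing the data. The tissue label was met by its markers, since 8 neuron markers summed to 6021 to 7079 CPM at 50 ng. Of 9 epithelial markers, Krt19, Cldn4, Muc5b, Bpifa1 and Scgb1a1 had 0 counts in all 8 libraries at 50 ng, and the list summed to at most 3.34 CPM.

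The 4 genes lie on different chromosomes of GRCm38. Scgb3a1 (ENSMUSG00000064057.10) spans chr11:49663610-49665118 on the plus strand and has 2 annotated transcripts of 3 and 4 exons. Lrg1 (ENSMUSG00000037095.7) spans chr17:56119678-56122001 on the minus strand with 2 exons. Tmem252 (ENSMUSG00000048572.4) spans chr19:24674008-24682233 on the plus strand with 2 exons. Spint1 (ENSMUSG00000027315.11) spans chr2:119237362-119249527 on the plus strand with 5 annotated transcripts of 2 to 11 exons. No annotated gene overlapped any of them. The nearest gene to a 3' end was Pgm5, 782 bases beyond Tmem252 on the other strand, and it reached at most 1.25 CPM at 50 ng and 3.76 CPM at 10 ng. Sema6b and Plin5 lay within 5000 bases of Lrg1 on the same strand, with mean levels at 50 ng of 8.97 and 0.664 CPM in WT and 11.1 and 0.436 CPM in GFAP-IL6.

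The promoters are shown because the 4 genes were picked for rising in the same contrast. Each is the RefSeq window of GRCm38.p6 from 250 bases before to 50 bases after the annotated start, written 5′ to 3′ on the strand of the gene, with matches to any of 3 motifs in capitals. The motifs were the STAT letters TTCNNNGAA, the C/EBP core TTGCNNAA and the TATA letters TATAAA, searched on both strands.
Scgb3a1 (chr11:49663345-49663644, plus strand): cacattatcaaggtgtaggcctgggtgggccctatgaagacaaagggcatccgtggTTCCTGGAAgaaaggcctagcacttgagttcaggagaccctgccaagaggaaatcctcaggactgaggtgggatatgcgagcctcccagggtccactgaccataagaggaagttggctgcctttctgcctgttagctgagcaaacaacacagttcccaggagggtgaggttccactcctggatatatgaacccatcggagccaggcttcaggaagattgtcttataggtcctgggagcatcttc
Lrg1 (chr17:56121897-56122196, minus strand): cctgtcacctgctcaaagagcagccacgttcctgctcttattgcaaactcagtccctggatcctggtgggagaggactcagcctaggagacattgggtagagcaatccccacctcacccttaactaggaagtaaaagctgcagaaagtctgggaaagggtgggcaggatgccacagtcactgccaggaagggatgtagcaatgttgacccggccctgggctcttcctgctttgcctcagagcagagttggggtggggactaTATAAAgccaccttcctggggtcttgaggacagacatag
Tmem252 (chr19:24673758-24674057, plus strand): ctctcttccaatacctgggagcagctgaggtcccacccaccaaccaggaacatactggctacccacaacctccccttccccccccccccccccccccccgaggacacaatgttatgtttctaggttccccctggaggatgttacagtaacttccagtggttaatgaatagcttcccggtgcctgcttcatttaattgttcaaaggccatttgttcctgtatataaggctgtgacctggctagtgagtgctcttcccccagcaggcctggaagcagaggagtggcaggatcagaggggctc
Spint1 (chr2:119237110-119237409, plus strand): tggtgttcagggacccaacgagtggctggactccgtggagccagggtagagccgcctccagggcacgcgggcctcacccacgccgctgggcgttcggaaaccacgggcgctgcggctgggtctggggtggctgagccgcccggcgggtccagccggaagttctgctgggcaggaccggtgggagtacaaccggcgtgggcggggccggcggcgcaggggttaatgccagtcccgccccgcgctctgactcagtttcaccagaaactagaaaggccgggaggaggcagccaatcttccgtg

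In these windows the STAT letters occurred once, in Scgb3a1 at position -194 from the start, and they occur in 8.3% of the 32851 RefSeq promoters of this length. The TATA letters occurred once, in Lrg1 at position 12 after the RefSeq start, against 13.6% of all promoters. The C/EBP core was in none of the 4 windows and in 10.8% of all promoters. The motif matches did not overlap each other. Scgb3a1, Lrg1 and Tmem252 had 3, 2 and 2 CG dinucleotides and a GC content of 53.3%, 54.7% and 55.3%, near the median of 52.7% of all promoters. Spint1 differed in sequence, with 28 CG dinucleotides and 69.7% GC. A match describes letters in a window and says nothing of a factor being bound.

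At 50 ng, the contrast that chose them, all 4 genes were higher in every GFAP-IL6 library than in any WT library, a separation that 1.93% of the 18948 genes with a count at this input had. These values are a description, and nothing is read from the separation. Scgb3a1 was at 6.36, 6.77, 8.90 and 5.97 CPM in WT replicates 1 to 4 and at 71.5, 97.0, 108 and 53.9 CPM in GFAP-IL6 replicates 1 to 4. Lrg1 was at 13.3, 9.03, 15.0 and 8.36 CPM in WT and at 55.3, 64.4, 69.9 and 20.1 CPM in GFAP-IL6. GFAP-IL6 replicate 4 was the lowest of its group for both genes, and for Lrg1 it lay closer to the highest WT library than to the next GFAP-IL6 library. Tmem252 was at 1.11, 0.752, 0.835 and 1.19 CPM in WT and at 6.95, 9.33, 6.69 and 3.76 CPM in GFAP-IL6. Spint1 was at 1.66, 0, 1.11 and 0.796 CPM in WT and at 9.56, 3.73, 7.38 and 5.02 CPM in GFAP-IL6. Tmem252 was again lowest in GFAP-IL6 replicate 4, whereas Spint1 was lowest in replicate 2, which had 4 counts.

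**Figure D1:**
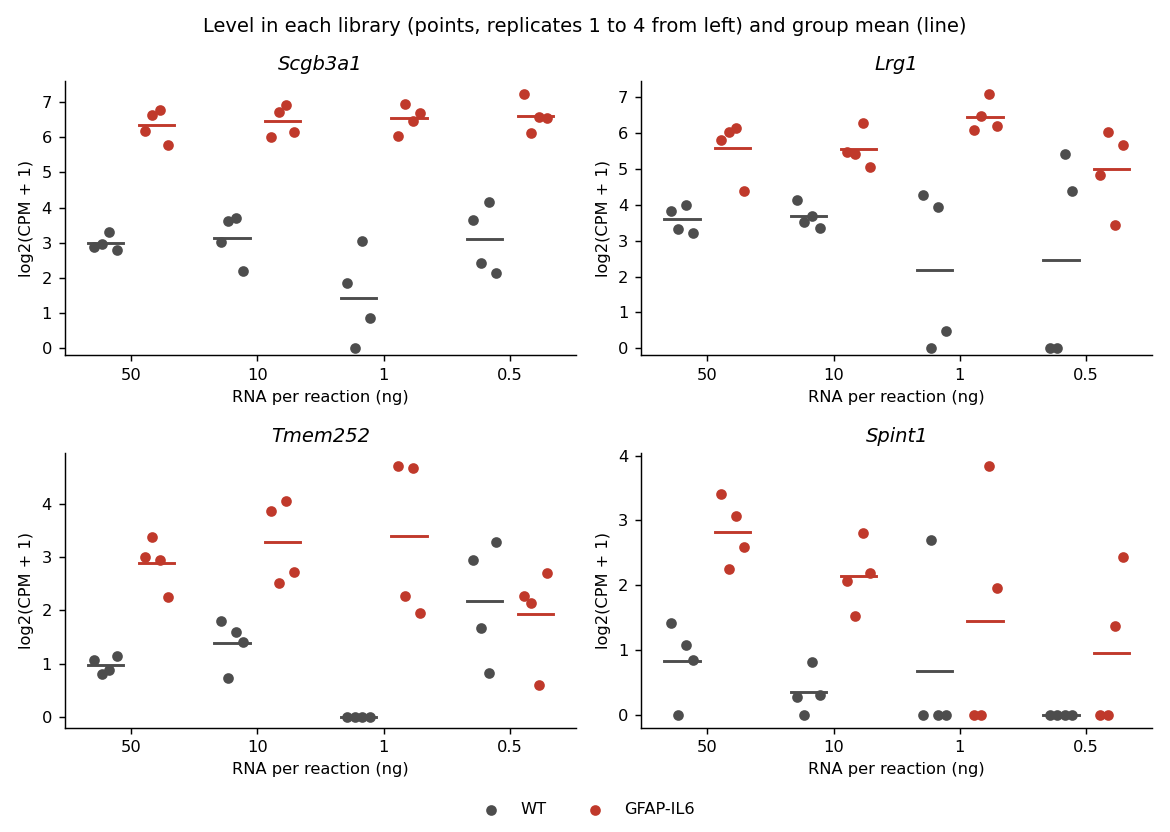
Level of each gene as log2(CPM + 1) on the vertical axis in every library at 50, 10, 1 and 0.5 ng of RNA, with WT in grey, GFAP-IL6 in red, replicates 1 to 4 from left to right in each group and the group mean as a line; the vertical scales differ between genes. Scgb3a1 was separated by genotype at all 4 inputs, whereas Lrg1, Tmem252 and Spint1 overlapped at 0.5 ng and Spint1 also at 1 ng.

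The log2 fold changes at 50 ng were 3.52 for Scgb3a1 (SE 0.25), 2.66 for Spint1 (SE 0.50), 2.53 for Tmem252 (SE 0.46) and 2.13 for Lrg1 (SE 0.31), from the edgeR fit of 4 against 4 libraries. A gene was called a DEG when its Benjamini-Hochberg adjusted p-value was under 0.05 and its log2 fold change was above 1. All 4 were DEGs, against 0.28% of the 11773 genes tested (33 genes), and nothing is read from this count because the contrast chose the genes. They took places 2, 6, 8 and 12 among the 33 DEGs ordered by fold change, which ran from 1.04 to 4.13. The rule names no threshold. The genes on either side of Lrg1 in that order were Gfap, with a log2 fold change of 2.20, and Lcp2, with 2.09. Scgb3a1 and Lrg1 were DEGs when any of the 8 libraries was left out, Spint1 in 3 such fits and Tmem252 in 1. These fits reuse the contrast that chose the genes, so they are a description and not a test. In WT, Tmem252 and Spint1 rested on 17 and 16 counts in all at 50 ng.

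The 10 ng libraries did not enter the choice of genes, though they may hold the same RNA, and in them the lowest GFAP-IL6 library again exceeded the highest WT library for all 4 genes, against 2.17% of the 18383 genes with a count. Scgb3a1 was at 7.20, 11.2, 12.1 and 3.56 CPM in WT and at 63.7, 103, 118 and 70.3 CPM in GFAP-IL6. Lrg1 was at 16.7, 10.6, 11.9 and 9.27 CPM in WT and at 43.6, 42.3, 77.7 and 32.6 CPM in GFAP-IL6. The groups did not overlap for either gene, and GFAP-IL6 replicate 3 was the highest library of both. Tmem252 was at 2.47, 0.660, 2.02 and 1.66 CPM in WT and at 13.5, 4.70, 15.5 and 5.59 CPM in GFAP-IL6. Its GFAP-IL6 libraries fell into a high pair, replicates 1 and 3, and a low pair, replicates 2 and 4, all above WT. Spint1 was at 0.206, 0, 0.758 and 0.238 CPM in WT, 1, 0, 3 and 2 counts, and at 3.20, 1.88, 5.95 and 3.56 CPM in GFAP-IL6. No WT library of Spint1 exceeded the floor of 3 counts, nor did GFAP-IL6 replicate 2, with 2 counts.

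The filter on low counts kept 3 of the 4 genes at 10 ng, and these 3 were DEGs, against 0.249% of 12043 genes (30 genes). Since a gene high in only 1 genotype passes the filter through that genotype, the count of 3 of 3 adds nothing to the values. Scgb3a1 rose by a log2 fold change of 3.47 (SE 0.28, edgeR, adjusted p = 8.22e-11, higher than all WT in 4 of 4 libraries). Lrg1 rose by 1.98 (SE 0.26, edgeR, adjusted p = 1.33e-05, 4 of 4) and Tmem252 by 2.42 (SE 0.52, edgeR, adjusted p = 0.0198, 4 of 4). Tmem252 lost the call when any of 5 libraries was left out, namely WT replicate 2 (edgeR, adjusted p = 0.0549), 3 (0.0557) or 4 (0.0744) and GFAP-IL6 replicate 1 (0.113) or 3 (0.115). Without both replicate 3 libraries, a fit chosen after seeing the data, its log2 fold change was 2.18 and it was not called (edgeR, adjusted p = 0.209). Spint1 was left out by the filter, and its mean log2(CPM + 1) was 1.80 higher in GFAP-IL6 (two-sided exact permutation test over 70 arrangements, p = 0.0286, the smallest they can give, 4 of 4 libraries). Its counts summed to 80 in GFAP-IL6 and 6 in WT. Fitted over all genes with no filter its log2 fold change was 3.40 and it was not called (edgeR, adjusted p = 0.0975; DESeq2, adjusted p = 0.0615).

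**Figure D2:**
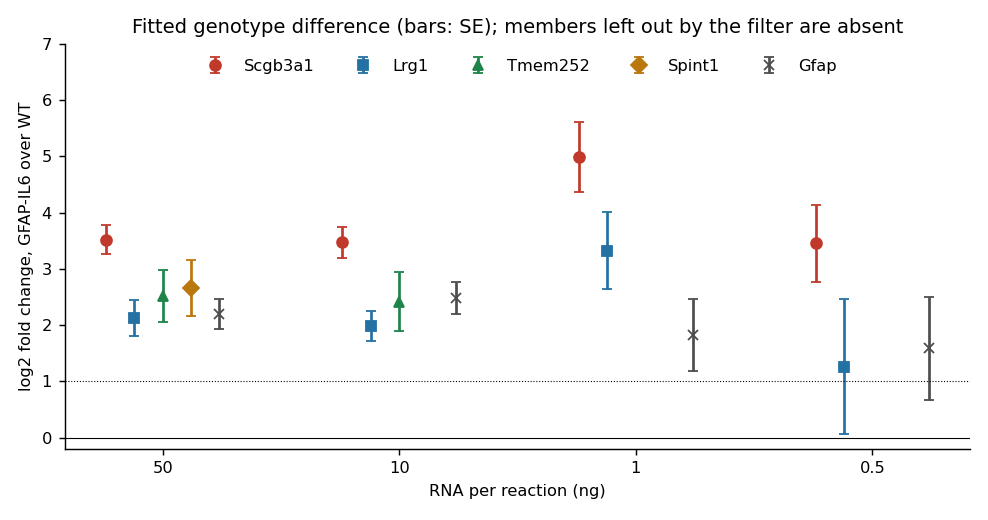
Fitted log2 fold change of GFAP-IL6 over WT on the vertical axis for each gene and for Gfap at each RNA input, with bars of 1 SE from the edgeR fit of 4 against 4 libraries; a dotted line marks the threshold of 1, and genes left out by the filter are absent. Scgb3a1 was at 3.52, 3.47, 4.99 and 3.46 from 50 to 0.5 ng, and the SE bars were longer at 1 and 0.5 ng.

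At 1 ng Scgb3a1 was the 1 member that passed the edgeR test with the filter, and for Scgb3a1, Lrg1 and Tmem252 the genotypes did not overlap, with or without the replicate 3 pair, against 1.33% of the 15519 genes with a count. It was at 2.62, 0, 7.23 and 0.818 CPM in WT and at 64.8, 122, 86.4 and 102 CPM in GFAP-IL6. No library of one genotype came near the other, and the replicate 3 pair lay on the side of its labels for Scgb3a1. Lrg1 was at 18.3, 0, 14.5 and 0.409 CPM in WT and at 67.0, 88.0, 137 and 72.5 CPM in GFAP-IL6. The WT libraries of Lrg1 fell into 2 with 28 and 18 counts and 2 with 0 and 1, while the genotypes did not overlap. Tmem252 had 0 counts in all 4 WT libraries and 35, 1, 44 and 8 counts in GFAP-IL6, or 25.2, 3.83, 24.5 and 2.86 CPM. Spint1 had 0, 2, 0 and 0 counts in WT and 0, 0, 24 and 8 in GFAP-IL6, so the genotypes overlapped.

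Scgb3a1 rose at 1 ng by a log2 fold change of 4.99 (SE 0.62, edgeR, adjusted p = 2.88e-04, 4 of 4 libraries) and was 1 of 3 DEGs, 0.0323% of the 9276 genes tested. It was called whichever of the 8 libraries was left out, and without both replicate 3 libraries, where the log2 fold change was 6.01 (edgeR, adjusted p = 4.01e-04). Lrg1 had a log2 fold change of 3.32 (SE 0.68) and did not pass (edgeR, adjusted p = 0.0987, 4 of 4), nor without the replicate 3 pair (edgeR, adjusted p = 0.789). DESeq2 called it (adjusted p = 0.00187). Tmem252, left out by the filter, had a mean log2(CPM + 1) that was 3.40 higher in GFAP-IL6 (two-sided exact permutation test, the smallest p that it allows, 0.0286) and 2.98 higher without the replicate 3 pair. DESeq2 called Tmem252 (DESeq2, adjusted p = 0.0389), whereas edgeR with no filter did not (edgeR, adjusted p = 0.149). With each WT library set at its own floor of 3 counts, the mean CPM of Tmem252 was 4.09-fold higher, or 2.80-fold without that pair, which held 44 of its 88 counts. These folds leave out the spread between GFAP-IL6 libraries, of which replicates 1 and 3 held 35 and 44 counts. GFAP-IL6 replicates 2 and 4, at 3.83 and 2.86 CPM, were under the floor of WT replicate 2, 8.19 CPM. At the floor the 2 genotypes are therefore not resolved in every library. Spint1 had 32 counts in GFAP-IL6 and 2 in WT, and the libraries did not separate (exact permutation test, p = 0.714). Its fold of mean CPM was 2.97 and its ratio of summed counts per total was 14.3, with a 95% exact counting interval of 3.65 to 123. GFAP-IL6 replicate 3 held 24 of the 32 counts, and without the pair the fold of mean CPM was 0.523, so Spint1 had no stable direction at 1 ng.

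At 0.5 ng the genotypes were separate for Scgb3a1, 1 of the 4 genes, against 1.12% of the 14594 genes with a count. Scgb3a1 was at 11.6, 4.33, 17.0 and 3.42 CPM in WT and at 149, 67.8, 93.5 and 92.9 CPM in GFAP-IL6. Lrg1 was at 0, 0, 41.7 and 20.1 CPM in WT and at 27.6, 64.4, 9.93 and 49.96 CPM in GFAP-IL6. In WT, Lrg1 had 0 counts in 2 libraries and 54 and 53 in the others, so GFAP-IL6 replicates 1 and 3 lay within the WT range. Tmem252 was at 6.65, 2.17, 0.772 and 8.74 CPM in WT and at 3.84, 3.39, 0.522 and 5.51 CPM in GFAP-IL6. Its highest library was WT replicate 4, with 23 counts, and no GFAP-IL6 library exceeded it. Spint1 had 0 counts in all WT libraries and 0, 0, 3 and 12 in GFAP-IL6, a mean of 1.49 CPM that is under the mean floor of its own libraries, 3.69 CPM, so no fold is given.

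No member was a DEG at 0.5 ng by edgeR, where 0.0117% of 8571 genes (1 gene) were called and 246 genes, 1 of them a member, had an unadjusted p under 0.05. Scgb3a1 had a log2 fold change of 3.46 (SE 0.68, edgeR, adjusted p = 0.308, 4 of 4 libraries), a size close to that at 50 and 10 ng with a wider error. DESeq2 called it (adjusted p = 1.20e-04) and 14 other genes. Lrg1 had 1.26 (SE 1.20, edgeR, adjusted p = 1.0, 2 of 4), and its fold of mean CPM was 2.46 with and 7.04 without the replicate 3 pair, where its genotypes did not overlap. The mean log2(CPM + 1) of Tmem252 differed by -0.25 and that of Spint1 by 0.95 (GFAP-IL6 minus WT, two-sided exact permutation tests, p = 0.771 and 0.429).

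Whether the genotype effect itself changed with input was tested against 10 ng in a single fit of the 24 libraries at 10, 1 and 0.5 ng. The fit took all 24 libraries as independent, though those of a genotype that share a number may hold the same RNA. Of the 3 members that entered, none passed at 1 ng or at 0.5 ng, where 0% and 0.00875% of 11427 genes did. In this fit 114 genes at 1 ng, Scgb3a1 and Tmem252 among them, and 769 at 0.5 ng, no member among them, had an unadjusted p under 0.05, and DESeq2 and voom called no member either. The difference in log2 fold change from 10 to 1 ng was 1.63 for Scgb3a1 (SE 0.77), 1.37 for Lrg1 (SE 1.13) and 5.80 for Tmem252 (SE 2.10, with all WT libraries at 0 counts), each with an adjusted p of 1.0 by edgeR. The value of Tmem252 was 4.00 by DESeq2 and 2.27 by voom, and that of Lrg1 was 2.56 by voom. Without both replicate 3 libraries the values were 2.57, 1.74 and 5.66 for Scgb3a1, Lrg1 and Tmem252, and none passed. From 10 to 0.5 ng it was 0.06 for Scgb3a1 (SE 0.73), -0.82 for Lrg1 (SE 1.12) and -3.00 for Tmem252 (SE 1.56, edgeR, adjusted p = 0.805). With genotype and replicate number as a block, no member passed at 1 or 0.5 ng either. With these errors the fit does not show that the effects are equal. The mean level over both genotypes was called different from 10 ng for none of the 3 at 1 ng or 0.5 ng, where 0.0263% and 0.674% of genes were called.

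Ordered by mean, the levels of Scgb3a1 fell into 2 sets. The 4 GFAP-IL6 groups, from 101 ± 34.4 CPM at 0.5 ng to 82.7 ± 24.5 CPM at 50 ng (SD, n = 4), overlapped one another, and all lay above the 4 WT groups, from 9.09 ± 6.42 CPM at 0.5 ng to 2.67 ± 3.23 CPM at 1 ng, which also overlapped one another. Lrg1 was highest in GFAP-IL6 at 1 ng (91.0 ± 31.6 CPM), followed by 50, 10 and 0.5 ng (52.4 ± 22.4, 49.0 ± 19.7 and 38.0 ± 24.1 CPM) and then WT from 15.5 ± 19.9 CPM at 0.5 ng to 8.30 ± 9.48 CPM at 1 ng. Each group of Lrg1 overlapped its neighbour in that order. Tmem252 ran from 14.1 ± 12.4 CPM in GFAP-IL6 at 1 ng over 9.82 ± 5.47 at 10 ng and 6.68 ± 2.28 at 50 ng, and its WT libraries at 0.5 ng (4.58 ± 3.74 CPM) came next, above GFAP-IL6 at 0.5 ng (3.32 ± 2.07 CPM). Only WT at 1 ng, with 0 counts, was separate from its neighbour. Spint1 was highest in GFAP-IL6 at 50 ng (6.42 ± 2.58 CPM) and the other 7 groups each overlapped the next.

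The spread between GFAP-IL6 libraries differed among the 4 genes and was set beside the spread that counting error alone would give at these totals. The coefficient of variation of Scgb3a1 was 29.7%, 29.4%, 25.9% and 34.1% at 50, 10, 1 and 0.5 ng, where counting error alone gave 7.03%, 6.46%, 12.1% and 11.04%. The measured spread of Scgb3a1 was above counting error at every input. That of Lrg1 was 42.7%, 40.2%, 34.8% and 63.4%, against 8.82%, 8.70%, 12.2% and 18.0% from counting. That of Tmem252 was 34.1%, 55.7%, 88.2% and 62.5%, against 24.7%, 19.4%, 31.1% and 60.9%. At 0.5 ng the spread of Tmem252 was about that of its counting error. That of Spint1 was 40.2% and 46.5% at 50 and 10 ng and 157% and 139% at 1 and 0.5 ng, against 25.2%, 31.9%, 58.0% and 90.7%. Tmem252 and Spint1, the genes with the fewest counts, were the ones whose counting error was largest. In WT the spread of Scgb3a1 was 18.7% at 50 ng and 121% at 1 ng, and that of Lrg1 was 28.4% at 50 ng and 129% at 0.5 ng. The common biological coefficient of variation that edgeR fitted over all genes was 0.214, 0.238, 0.519 and 0.767 from 50 to 0.5 ng. Fitted for Scgb3a1 alone it was 0.210, 0.222, 0.437 and 0.598.

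**Figure D3:**
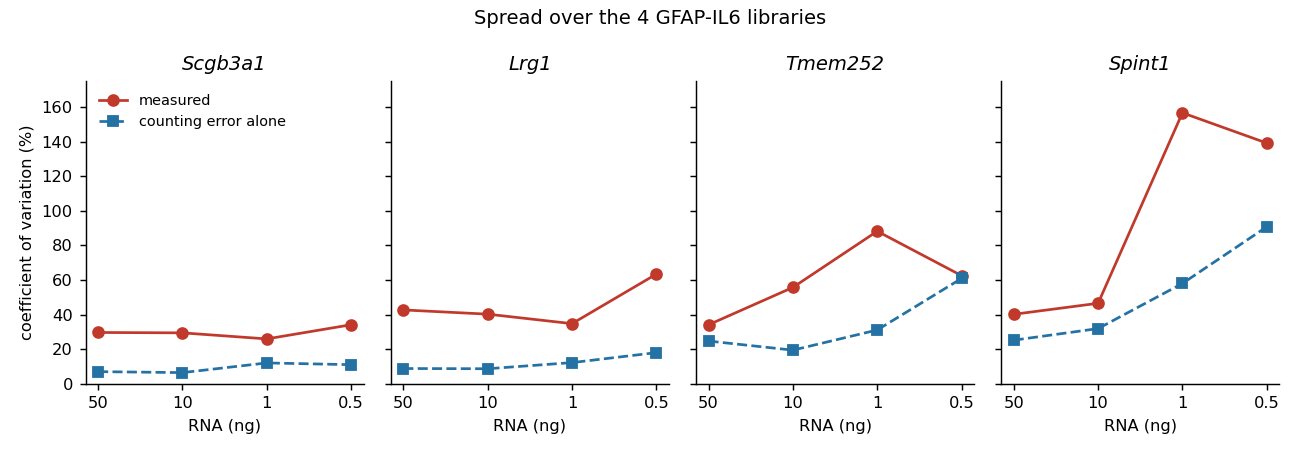
Coefficient of variation in percent over the 4 GFAP-IL6 libraries at each RNA input (red circles) beside the value that Poisson counting at the same mean and totals would give (blue squares), a panel per gene. Scgb3a1 stayed between 25.9% and 34.1%, and Spint1 reached 157% at 1 ng.

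Il6 and Gfap were read in the same libraries. The sources used here do not give the 3' end of the transgene, so whether Il6 reads came from it or from the mouse's own gene was not tested. Il6 was at 0.277, 0, 0 and 0.133 CPM in WT and at 4.92, 8.40, 5.07 and 0.717 CPM in GFAP-IL6 at 50 ng. At 10 ng it was at 0.411, 0, 0.758 and 0 CPM in WT and at 10.1, 1.88, 5.35 and 2.03 CPM in GFAP-IL6. The WT libraries were at or under the floor of 3 counts at both inputs, and replicate 4 was the lowest GFAP-IL6 library at 50 ng, as it was for Scgb3a1, Lrg1 and Tmem252. At 1 ng Il6 had counts in 2 GFAP-IL6 libraries and at 0.5 ng in none of the 8 libraries, while Scgb3a1 was separated by genotype at both. Gfap was at 9.96, 12.04, 14.5 and 8.89 CPM in WT and at 43.7, 64.4, 74.0 and 30.6 CPM in GFAP-IL6 at 50 ng. At 10 ng it was at 9.87, 7.26, 8.08 and 6.77 CPM in WT and at 41.6, 51.7, 68.2 and 25.5 CPM in GFAP-IL6. An antisense noncoding gene, Gm26668, spans Gfap, but it reached at most 0.595 CPM at these inputs. Fam187a, on the other strand 604 bases beyond the 3' end of Gfap, had a mean of 0.413 CPM in WT and 7.98 CPM in GFAP-IL6 at 50 ng, and whether the genes share reads was not tested.

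At 50 ng the order of GFAP-IL6 libraries from high to low, replicates 3, 2, 1 and 4, was shared by Gfap, Scgb3a1 and Lrg1. At 10 ng Gfap kept that order, Scgb3a1 ran 3, 2, 4, 1 and Lrg1 ran 3, 1, 2, 4. Tmem252 ran 2, 1, 3, 4 at 50 ng and 3, 1, 4, 2 at 10 ng, where Il6 ran 2, 3, 1, 4 and 1, 3, 4, 2. In both genes replicate 4 was lowest at 50 ng, and replicates 1 and 3 were the upper pair at 10 ng. Spint1 ran 1, 3, 4, 2 at 50 ng and 3, 4, 1, 2 at 10 ng, an order that neither Gfap nor Il6 had.

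As Pearson's r of log2(CPM + 1) within the 8 GFAP-IL6 libraries at 50 and 10 ng, the value with Gfap was 0.848 for Scgb3a1, 0.866 for Lrg1, 0.482 for Tmem252 and 0.208 for Spint1. With Il6 it was 0.329 for Scgb3a1, 0.753 for Lrg1, 0.842 for Tmem252 and 0.159 for Spint1. These are descriptions without a test, over libraries that share totals and possibly animals, and this set of 8 was added after seeing the data. At 50 ng GFAP-IL6 replicate 4 stood apart. Its chi-square per degree of freedom over genes was 38.2, 14.9 and 55.1 against replicates 1, 2 and 3, and 2.37 to 6.43 among those. This measure grows with library totals. Replicate 4 was lowest at 50 ng for Gfap, Il6, Scgb3a1, Lrg1 and Tmem252, and how far the r rest on it was not tested. Measured as deviations from the 4 group means over all 16 libraries at these inputs, r with Gfap was 0.649, 0.850, 0.503 and 0.062 for Scgb3a1, Lrg1, Tmem252 and Spint1, and r with Il6 was 0.285, 0.690, 0.846 and 0.268. By these values Lrg1 varied with both genes, Scgb3a1 more with Gfap, Tmem252 more with Il6 and Spint1 less with Gfap than the other members. With Il6 the deviations of Spint1 were close to those of Scgb3a1. With a pseudocount of 0.1 the r of deviations with Il6 was 0.471 for Spint1 and 0.318 for Scgb3a1, so their order is not stable. In these libraries Il6 had 0 to 41 counts and Spint1 0 to 35. Among 13477 other genes ordered by r of deviations, Gfap took places 275, 383, 2534 and 7807 for Scgb3a1, Lrg1, Tmem252 and Spint1. Il6 took places 3488, 1577, 57 and 5094. Many other genes thus varied with each member more closely, so these r are not particular to Gfap or Il6. Whether the r of a gene with Gfap and that with Il6 differ was not tested.

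**Figure D4:**
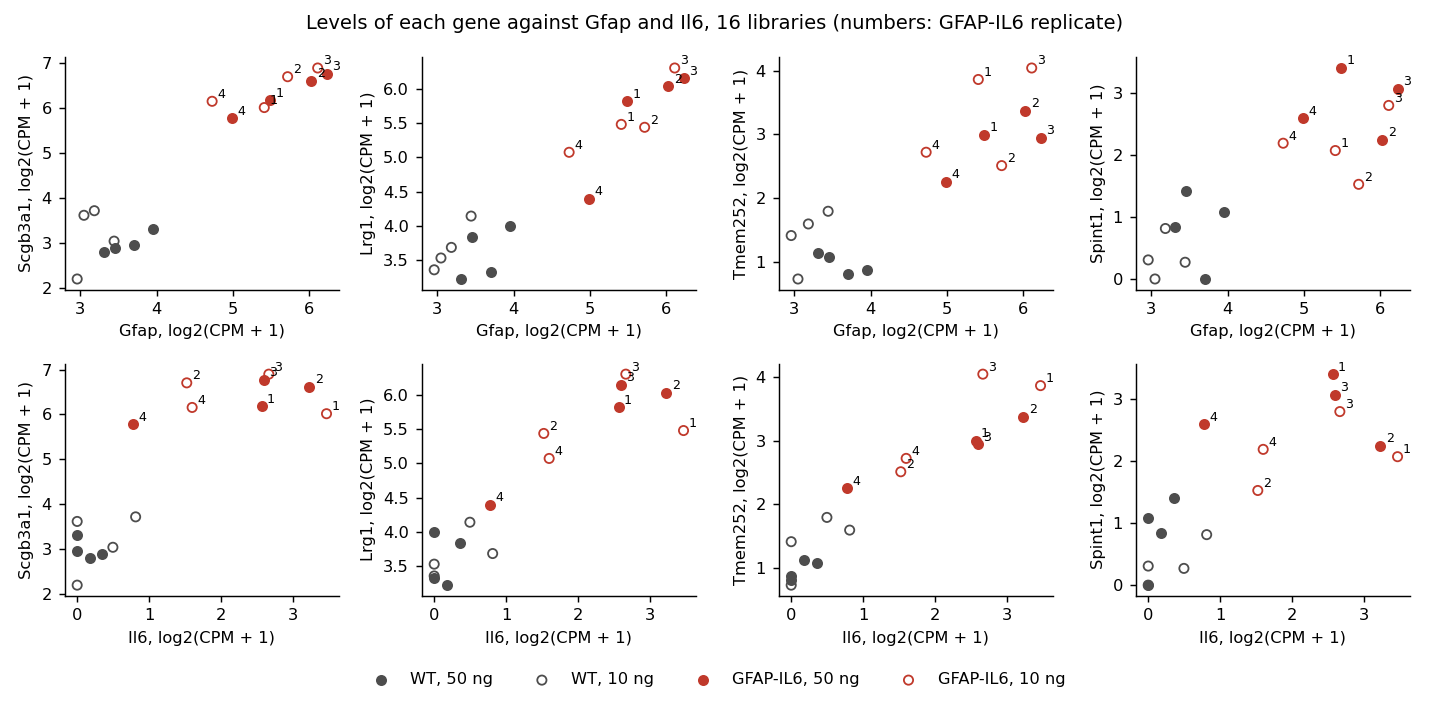
Level of each gene against Gfap (top row) and Il6 (bottom row), all as log2(CPM + 1), in the 16 libraries at 50 ng (filled) and 10 ng (open), with WT in grey, GFAP-IL6 in red and GFAP-IL6 points numbered by replicate. The genotypes are apart along the vertical axis in every panel, and within GFAP-IL6 the r was 0.842 for Tmem252 with Il6 and 0.159 for Spint1 with Il6.

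Over the 16 libraries as a whole, which form separate clusters by genotype, r mainly follows the genotype, and it is used here to order genes by likeness. Among 13477 other genes with a mean above 1 CPM, those most like Scgb3a1 were Fcgr2b, C4b, Gfap, Ccl12 and Lrg1, with r from 0.955 to 0.935. Those most like Lrg1 were Ctss, Fcer1g, AF251705, Tmem176a and Lyz2, with r from 0.972 to 0.960. Those most like Tmem252 were Il6, Ccl12, Ly86, Ctss and Lrg1, with r from 0.949 to 0.919. Those most like Spint1 were Pycard, Vav1, Cst7, Cd244 and Pirb, with r from 0.917 to 0.892. With Gfap the pooled r was 0.952 for Scgb3a1, 0.958 for Lrg1, 0.874 for Tmem252 and 0.859 for Spint1, placing Gfap at 3, 6, 21 and 19. With Il6 it was 0.863, 0.924, 0.949 and 0.789, placing Il6 at 31, 17, 1 and 49. Gfap stood nearer than Il6 to Scgb3a1, Lrg1 and Spint1, and Il6 nearer than Gfap to Tmem252, but for Spint1 the order turned with a pseudocount of 0.1, where r was 0.817 with Il6 and 0.808 with Gfap, and as deviations. Among themselves, the deviations of Scgb3a1 and Lrg1 had r = 0.589, those of Lrg1 and Tmem252 0.641, and those of Scgb3a1 and Tmem252 0.077.

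Genes of the pathways around the members were read from lists. Of 25 genes of IL6 signalling and the acute phase, 9 were tested at 50 ng and 9 at 10 ng and none was a DEG by edgeR (1 and 4 had an unadjusted p under 0.05) or by DESeq2, with median log2 fold changes of 0.37 and 0.57, where the median over all tested genes was near 0 at both. Over all genes tested, 663 of 11773 at 50 ng and 901 of 12043 at 10 ng had an unadjusted p under 0.05. The 25 genes summed to 137 to 160 CPM in WT and 189 to 235 CPM in GFAP-IL6 at 50 ng. At 10 ng the sums were 101 to 177.33 CPM in WT and 177.18 to 214 CPM in GFAP-IL6. The largest log2 fold change at 50 ng was 2.67 for Osmr, the oncostatin M receptor (SE 0.65, edgeR, adjusted p = 0.117). Cp, which encodes ceruloplasmin, had a log2 fold change of 1.31 (SE 0.42, edgeR, adjusted p = 0.336) and Il6ra, the receptor of the cytokine, 1.26 (SE 0.71, edgeR, adjusted p = 0.711) at 10 ng. Of 5 other secretoglobin genes listed, Scgb1a1, Scgb1b2, Scgb2a2 and Scgb3a2 had 0 counts at 50 and 10 ng and Scgb1c1 was too low to be tested, so Scgb3a1 was the 1 gene of that list that could be tested. Of 10 genes around HAI-1, the product of Spint1, 2 could be tested at 10 ng and neither was called by edgeR or DESeq2 (1 had an unadjusted p under 0.05). Met, the receptor of hepatocyte growth factor, had a log2 fold change of 1.22 (SE 0.60, edgeR, adjusted p = 0.662) and Spint2, the related inhibitor HAI-2, had -0.20 (SE 0.25, edgeR, adjusted p = 0.880). Of 15 genes of the TGF-beta pathway in which LRG1 acts, 11 were tested at 10 ng and none was called by edgeR or DESeq2 (0 had an unadjusted p under 0.05). At 50 ng DESeq2 called 1 of them, Tgfbr2, and edgeR none. Acvrl1, a receptor of endothelium, had a log2 fold change of 0.75 (SE 0.51, edgeR, adjusted p = 0.774) and Tgfbr2 0.54 (SE 0.43, edgeR, adjusted p = 0.798), and the median of the 11 was 0.25.

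Of the marker sums of other cells, those of microglia and endothelium were apart by genotype at 10 ng, and the others overlapped. At 10 ng, 8 microglia markers summed to 341 to 402 CPM in WT and 478 to 710 CPM in GFAP-IL6, and 1 of the 8, Trem2, was a DEG by edgeR and DESeq2 with a log2 fold change of 1.02 (SE 0.20, edgeR, adjusted p = 0.00773). Of the 8, 7 had an unadjusted p under 0.05, and Aif1 passed the adjusted p with a log2 fold change under the threshold of 1 (0.87, edgeR, adjusted p = 0.0238). Over all genes tested at 10 ng, 901 of 12043 had an unadjusted p under 0.05. The 10 endothelial markers summed to 123 to 150 CPM in WT and 204 to 230 CPM in GFAP-IL6, with none of 7 tested called by edgeR or DESeq2 (3 had an unadjusted p under 0.05), and the largest log2 fold changes were 1.18 for Flt1 (SE 0.30, edgeR, adjusted p = 0.0868) and 0.75 for Slco1a4. Outside the list, and named after their values were seen, Vwf, which encodes von Willebrand factor of endothelium, and Slc38a5, an amino acid transporter of brain endothelium, were DEGs at 10 ng with log2 fold changes of 2.49 and 1.97 (edgeR, adjusted p = 0.0306 and 0.00194). The 8 astrocyte markers other than Gfap summed to 2711 to 3375 CPM in WT and 3052 to 3549 CPM in GFAP-IL6 at 10 ng, which overlap, with log2 fold changes of at most 0.45 for Slc1a2 and 0.40 for Aqp4. Of 9 neutrophil markers, Cxcr2 and Elane had 0 counts at 50 and 10 ng, and the sums overlapped, at 0.758 to 10.5 CPM in WT and 0.915 to 7.52 CPM in GFAP-IL6 at 10 ng. Choroid plexus markers summed to 51.2 to 3055 CPM in WT, the top being replicate 3, and 34.0 to 315 CPM in GFAP-IL6 at 10 ng, while lymphocyte markers (38.0 to 76.3 and 37.6 to 92.3 CPM) and meningeal markers (45.0 to 68.7 and 40.2 to 71.0 CPM) overlapped, with no gene of these lists called. Their largest log2 fold changes were -2.57 for Ttr (edgeR, adjusted p = 0.170), -0.87 for Kcnj13, 0.22 for Ighm, -1.15 for Lum and -1.03 for Ogn. Among neuron markers the largest were -0.19 for Snap25 and -0.15 for Rbfox3, and the 1 neutrophil marker tested, S100a8, had -0.57. The part of any of these cells in the change of the 4 genes was not tested, and in bulk RNA more cells of a type and more RNA per cell cannot be told apart.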

How the data were processed

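After demultiplexing, poly(A) stretches were removed by the authors, who used STAR 2.4 with the mouse genome mm10 and featureCounts with GENCODE genes; the labels' build field also lists hg19. The deposited values were whole-number counts, not normalized, for 33000 genes, and the authors' gene lengths were not used. Whether counting used the strand was not given in the sources used here. No per-sample column was left unused. The 4 genes and the lists were chosen with earlier results of these data known.

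Each gene was tested within each input by edgeR 4.0.16 in R 4.3.3 (TMM, filterByExpr, quasi-likelihood, Benjamini-Hochberg over all genes tested), 4 GFAP-IL6 against 4 WT libraries. The sources used here name no molecular identifiers, so floors and intervals cover counting error only. SE was worked out from the F statistic. Genes the filter left out were compared by a two-sided exact permutation test of mean log2(CPM + 1), with a pseudocount of 1. Alternatives were DESeq2 1.42.0, limma 3.58.1 voom with input weights, DESeq2 size factors, no filter, thinning to the lowest total, a replicate block, a single fit of 32 libraries and leaving out each library. The fits were tested on simulated data. Values were computed with Python 3.11.15, pandas 2.3.3, numpy 2.4.6 and scipy 1.17.1 and drawn with matplotlib 3.10.9. Coordinates are from GENCODE vM21 (GRCm38, the build of mm10) and promoters from RefSeq, in which all 4 genes were found. Replicate libraries differed in all 48 pairs by more than sampling noise (chi-square per degree of freedom at least 2.37). Genes named were the 4 members, Il6 and Gfap, the 5 genes with the highest r over 16 libraries for each member, and in each list the genes called at 10 ng or else the 2 with the largest absolute log2 fold change there; genes outside this rule were named after their values were seen.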

Additional observations from a re-analysis of the deposited data

Results flagged for a closer look

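Among 44 groups of 4 libraries of the members, Il6 and Gfap that held any counts, 3 had a library far from the others by Dixon's criterion. Chance meets it in about 1 group in 20, a rate that does not hold for the Spint1 and Il6 groups, where 3 libraries at 0 make any value meet it. Spint1 was at 5.46 CPM in WT replicate 2 at 1 ng, from 2 counts in the WT library with the lowest total, and at 0 in the other 3 WT libraries. Il6 was at 10.4 CPM in WT replicate 3 at 1 ng, from 13 counts, and at 0 in the other 3. Gfap was at 9.61 CPM in GFAP-IL6 replicate 1 at 0.5 ng, against 57.5, 61.0 and 62.4 CPM in the other 3 libraries, and in that library Scgb3a1 was at 149 CPM, the highest of its group. The causes were not tested.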

How the results depend on the processing

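Tmem252 and Spint1 were near the limit of these depths, and the counts of members called were small, so a change of 1 gene moves them. Of the 4 members, 1 was called at 50 ng after thinning, where 1 could be tested, 1 in the single fit of all 32 libraries, 2 without both replicate 3 libraries, and 2 to 4 when a library was left out. The calls of members at 50 ng are a description, because that contrast chose the genes. At 10 ng 1 was called after thinning and 1 in the single fit, and 2 to 3 when a library was left out. At 1 ng DESeq2 called 3, Scgb3a1, Lrg1 and Tmem252. Scgb3a1 and Lrg1 were called with no filter, after thinning and with the replicate block (Lrg1 with the block, edgeR, adjusted p = 0.0401). The single fit called Scgb3a1 and Tmem252 (Tmem252, edgeR, adjusted p = 0.00904) but not Lrg1 (edgeR, adjusted p = 0.0940). At 0.5 ng DESeq2, no filter and the single fit each called 1, Scgb3a1. Over all genes, 78 were called at 50 ng with no filter, 7 after thinning, 3 in the single fit, 7 without both replicate 3 libraries and 11 to 59 when a library was left out, the most without GFAP-IL6 replicate 4. At 10 ng 11 were called after thinning and 4 in the single fit. At 1 ng DESeq2 called 12, no filter 8, the replicate block 6 and the single fit 11, and leaving out a library gave 2 to 4. At 0.5 ng DESeq2 called 15, no filter 3 and the single fit 355, and leaving out a library gave 1 to 2. The single fit shares its spread between inputs whose own spreads differed. Within inputs no alternative reversed a member that was tested, and none called a difference between inputs for a member.

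The difference in effect from 10 to 0.5 ng of Lrg1 changed sign without WT replicate 3 (0.093), without both replicate 3 libraries (0.77) and with voom weights (0.32), and that of Scgb3a1 after thinning (-0.44), without WT replicate 2 (-0.25) and without GFAP-IL6 replicate 1 (-0.34), none past the threshold; leaving out a library gave -1.44 to 0.093 for Lrg1 and -0.34 to 0.30 for Scgb3a1. The median coefficient of variation of the members in GFAP-IL6 ran from 19.7% to 46.0% at 50 ng, 28.8% to 50.3% at 10 ng, 52.4% to 75.7% at 1 ng and 39.8% to 75.8% at 0.5 ng when a library was left out. Over all 32 libraries, where Il6 had 0 counts at 0.5 ng, pooled r with Il6 was 0.427, 0.441, 0.480 and 0.330 for Scgb3a1, Lrg1, Tmem252 and Spint1, and with Gfap 0.770, 0.662, 0.575 and 0.491. The deviations over 32 libraries gave 0.273, 0.197, 0.294 and -0.249 with Il6 and 0.377, 0.344, 0.213 and 0.024 with Gfap, with a turn of sign for Spint1 and Il6. The deviations over the 16 libraries at 50 and 10 ng, against the pooled r over those libraries, were 0.285, 0.690, 0.846 and 0.268 with Il6 and 0.649, 0.850, 0.503 and 0.062 with Gfap.

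Same-numbered libraries share only a number by the labels. At 50 ng the deviations of same-numbered libraries of the 2 genotypes had r from 0.036 to 0.189. Same-numbered libraries of a genotype at 2 inputs had r from 0.0098 to 0.510, all positive. No set of 4 pairs was above 0.1 throughout, a cutoff chosen here, and the main fits did not treat the numbers as pairs. That choice does not show that same-numbered libraries are independent. With the replicate block 36 genes were called at 50 ng and 44 at 10 ng, and the members called were 4, 3, 2 and 0 from 50 to 0.5 ng.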
